A study of Mus musculus with 346 samples.

Results

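The genes described here are the ligands and receptors of the 4 classical axon guidance systems, taken as the protein-coding genes whose mouse symbols name a semaphorin, plexin, neuropilin, ephrin, Eph receptor, Slit, Robo, netrin, Unc5 or Dcc. The rule found 69 genes of the 25141 analysed. They were 20 semaphorins, 9 plexins, 2 neuropilins, 14 Eph receptors, 8 ephrins, 3 slits, 4 Robo receptors, 4 netrins and 5 netrin receptors (Unc5a to Unc5d and Dcc). The data are 346 single mammary cells of the inbred FVB/NJ strain, with no treatment and no engineered allele in any group. By the labels 144 came from 2-week-old mice (pre-puberty), 136 from mice aged 4.7 to 4.9 weeks (puberty) and 66 from 10-week-old mice (adult), all as total epithelium, and the design text gives 8 mice per stage, while the study describes other numbers of mice per sort in repeated experiments. Because no cell is tied to a mouse, each stage is 1 pooled sample, no test between stages was possible, and all intervals below are 95% and cover counting error only.

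These systems were first described in the growth cones of neurons, which they attract or repel, and most of them also act outside the nervous system. Semaphorins bind plexins, and the secreted class 3 semaphorins do so mostly through the neuropilins Nrp1 and Nrp2. Ephrins are held at the cell surface and signal to Eph receptors on a touching cell, Slits bind Robo receptors, and netrins bind Dcc and the Unc5 receptors. In the mammary gland, netrin and Slit signals are known for their part in the cohesion of the luminal and basal layers of the growing end bud, and Eph receptors and semaphorins for parts in branching. Schwann cells, the glia of peripheral nerves, also use these systems as they meet and ensheath axons.

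Cells were kept when they held at least 100000 reads and 1500 detected genes, which left 116 pre-pubertal, 119 pubertal and 44 adult cells, 279 in all. Kept cells held between 109387 and 1189155 reads, and the median cell held 296600 (pre-puberty), 574825 (puberty) or 334667 (adult). No 2 cells had identical counts. The cells were checked against marker lists, which were chosen with earlier results of these data known. Of the 116 pre-pubertal cells, 115 had reads of 8 or more of 18 Schwann cell markers, against 2 of 119 pubertal and 0 of 44 adult cells. The median pre-pubertal cell had 13 of the 18 Schwann markers and 0 of 14 pan-epithelial markers, while the median pubertal and adult cells had 9 and 7 of the 14. Epcam, an epithelial adhesion gene, was read in 13.8% of the pre-pubertal cells. The median cell had 2.5, 2 and 7.5 of 15 basal markers in the order of the stages. Krt14, a basal keratin, was read in 24.1%, 40.3% and 77.3% of cells. The study describes the pre-pubertal cells as basal-like epithelium, also from imaging and single-cell westerns of keratins. The summed Schwann markers ranged from 572 to 79258 CPM over pre-pubertal cells, from 0 to 139971 CPM at puberty and from 0 to 4363 CPM in the adult. The median cell had 4, 1 and 0 of 12 fibroblast markers in the order of the stages, and 0 of the endothelial, immune, pericyte and neuron markers at all 3. The label of total epithelium was therefore not borne out by the pan-epithelial and Schwann markers at pre-puberty. Age and cell type cannot be told apart in any comparison with the pre-pubertal cells.

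Levels are given as reads summed over the kept cells of a stage per 1000000 reads (CPM), and per 1000 bases of gene length (RPKM) wherever 1 gene is compared with another. A share is the percentage of cells with at least 1 read of a gene after each cell was thinned to 100000 reads. Of the 69 genes, 37 reached 10 CPM at 1 stage or more, 32 stayed below it at every stage, and 2, Sema6c and Ntn5, had no read in any kept cell. All 69 together held 2173 CPM (2159 to 2188) in pre-pubertal, 1745 CPM (1735 to 1755) in pubertal and 1236 CPM (1220 to 1252) in adult cells. A median of 10 of the genes was read per pre-pubertal cell, with a range of 4 to 20, against medians of 5 for pubertal cells (0 to 19) and 6 for adult cells (0 to 13).

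The order of the genes by RPKM differed between the stages. At pre-puberty the first 5 were Sema3b at 49.5 RPKM, Sema3c at 47.9, Sema6d at 47.1, Nrp1 at 45.9 and Efna5 at 36.9. The intervals of Sema3b (48.3 to 50.6) and Sema3c (47 to 48.9) overlapped, as did those of each following pair of neighbours down to Nrp1 (45 to 46.8), while Sema3b and Nrp1 themselves were apart. At puberty Efna5 led at 115 RPKM, followed by Efna1 at 43.2, Sema3c at 23.7, Efnb2 at 22.6 and Nrp1 at 18.9. In the adult Efna1 led at 146.6 RPKM, followed by Sema3c at 42.4, Unc5b at 15.9, Robo1 at 14.6 and Efna5 at 13.9. The adult Unc5b value came almost wholly from 1 cell, which held 99.8% of its reads. The adult Robo1 value also rested on 1 cell with 68.6% of the reads, and its level without that cell was 35.6 in place of 111 CPM.

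**Figure D1:**
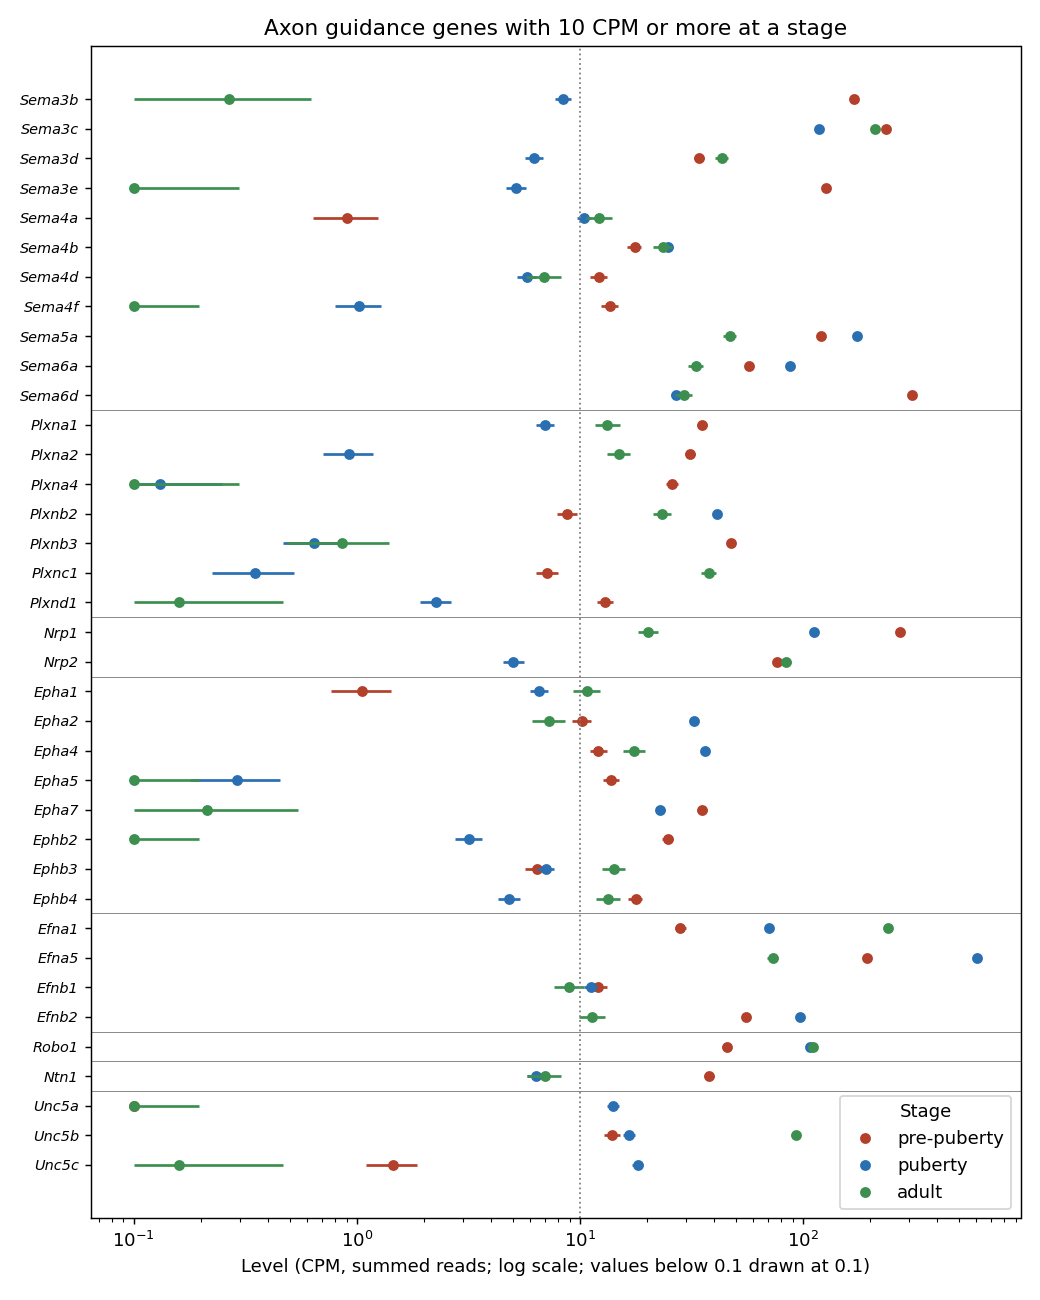
Level of the 37 genes with 10 CPM or more at a stage, in CPM of summed reads on a log axis, with exact Poisson 95% intervals as horizontal bars (many are shorter than the point) and grey lines between families. Red points (pre-puberty) stand to the right of the other stages for Sema3b, Sema3e, Sema6d, Plxna4, Plxnb3 and Nrp1, blue points (puberty) for Efna5, Efnb2, Epha2, Epha4 and Plxnb2, and the green point (adult) for Efna1.

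Between pre-puberty and puberty, 16 genes were at least 2-fold higher at pre-puberty and 9 at least 2-fold lower, among the 34 with 10 CPM at either stage. A ratio was called past the fold when its log2 value, with 5 CPM added to both levels, was 1 or more. The 16 higher genes were 47.1% of those 34, and 21.4% of all 9868 genes at this level were higher by the same rule. The 9 lower genes were 26.5%, and 24.0% of all genes were lower. The median log2 ratio of the 34 genes was 0.83, against -0.12 over all genes. Of the 16 higher calls 13 held under each of the 10 other ways of processing tried, and of the 9 lower calls 4 did. Against the adult, 16 genes were higher at pre-puberty (45.7% of 35, background 31.7%) and 7 lower (20% of 35, background 28.9%). Of these calls 11 of the 16 and 1 of the 7 held under each of the 10 other ways, and without the top cell of each gene 1 gene was lower. The 2 comparisons share the pre-pubertal cells, and 12 genes were higher at pre-puberty in both of them: Sema3b, Sema3e, Sema4f, Sema6d, Plxna1, Plxna4, Plxnb3, Plxnd1, Nrp1, Epha5, Ephb2 and Ntn1. The share of all genes higher in both is not given here, so the 12 stand without a background. The call of Plxna1 against the adult held in 8 of the 10 other ways, and those of Sema4f and Plxnd1 in 9, at both later stages.

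The upstream sequences of some of these 12 genes, which were picked for being higher at pre-puberty, are shown because of Sox10. Sox10, a transcription factor on the Schwann marker list, was read in 75% of the pre-pubertal cells against 20.2% of pubertal and 20.5% of adult cells. RefSeq promoters of GRCm38.p6 (mm10) were found for 8 of the 12 genes, with 9 start sites. The 250 bases before each start were searched on both strands for ACAAAG and ACAATG, 6-base cores of the sites that SOX proteins bind, and their complements CTTTGT and CATTGT. The windows of 3 of the 9 starts held a match, in Plxnb3, Sema6d and Sema4f. Of all 32851 windows of this length 25.2% did, so the share in these genes was near that of all genes. Of 75 windows found for 59 of the 69 genes, 12 held a match (16%). Other windows, among them those of Nrp1 and Sema3e without a match, are not printed. Plxnb3, with 3 matches, and both starts of Sema6d, with 0 and 1, are printed 5′ to 3′ on the plus strand, with each match in capitals.
Plxnb3, chrX:73756853-73757102: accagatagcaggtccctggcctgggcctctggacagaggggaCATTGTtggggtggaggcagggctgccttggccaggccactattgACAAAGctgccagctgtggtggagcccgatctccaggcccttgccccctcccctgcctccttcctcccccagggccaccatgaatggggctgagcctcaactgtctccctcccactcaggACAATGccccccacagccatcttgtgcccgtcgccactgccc
Sema6d, first start, chr2:124089719-124089968: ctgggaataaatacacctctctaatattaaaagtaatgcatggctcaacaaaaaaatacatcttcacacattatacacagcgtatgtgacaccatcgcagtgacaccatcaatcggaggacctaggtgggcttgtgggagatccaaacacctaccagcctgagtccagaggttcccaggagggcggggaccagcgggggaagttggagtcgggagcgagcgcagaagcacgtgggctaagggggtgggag
Sema6d, second start, chr2:124653331-124653580: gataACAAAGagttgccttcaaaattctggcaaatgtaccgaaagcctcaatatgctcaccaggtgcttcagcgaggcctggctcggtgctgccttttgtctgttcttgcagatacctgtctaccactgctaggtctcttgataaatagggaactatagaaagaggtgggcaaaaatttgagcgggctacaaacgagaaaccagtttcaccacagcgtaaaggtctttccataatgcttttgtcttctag
A match is a string of letters and not a shown binding site.

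Among the secreted class 3 semaphorins, Sema3b, a neuropilin ligand, was at 169.9 CPM (166 to 174) at pre-puberty, 8.42 CPM (7.75 to 9.14) at puberty and 0.267 CPM (0.0868 to 0.624) in the adult. Pre-puberty thus exceeded puberty with a log2 ratio of 3.70 and the adult with 5.05. Reads of Sema3b were found in 77 of 116 thinned pre-pubertal cells (66.4%, 57 to 74.9), in 6 of 119 pubertal cells (5.04%) and in 0 of 44 adult cells, which by a limit of 3 cells allows a share of up to 6.82%. The 3 shares thus did not overlap in their intervals between pre-puberty and either later stage. Sema3e, which binds Plxnd1 directly, was at 127, 5.2 and 0.0535 CPM in the same order. It was read in 38.8% (29.9 to 48.3) of cells at 2 weeks, 3.36% at puberty and 2.27% at 10 weeks. The adult value of Sema3e was 1 read, which gives a pre-pubertal level 2376-fold higher with a counting interval of 426 to 93884.

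Sema3c, another neuropilin ligand, was high at all 3 stages. Its level was 237 CPM (233 to 242) at pre-puberty, 118 CPM (115 to 120.2) at puberty and 210.2 CPM (204 to 217) in the adult, and neither ratio from pre-puberty passed the fold. Its share of cells was 76.7% (68 to 84.1), 22.7% (15.5 to 31.3) and 52.3% (36.7 to 67.5), so the pubertal share was the lowest of the 3. A few cells with fibroblast markers weighed on these levels. Without the cells whose markers went against their stage, among them 3 fibroblast-like cells at each of the later stages, Sema3c was at 37.6 CPM at puberty and 139 CPM in the adult, and at 238 CPM at pre-puberty, and the ratio of pre-puberty over puberty then passed the fold (log2 2.52). Sema3d was at 34.4, 6.25 and 43.3 CPM, and its adult level was 2.35 CPM without those cells. Its adult reads were in 2 of the thinned cells, and 1 fibroblast-like cell held 94.8% of the reads.

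Sema6d, a membrane semaphorin that binds Plxna1, was at 308 CPM (303 to 314) at pre-puberty, against 26.9 CPM (25.7 to 28.2) at puberty and 29.2 CPM (26.8 to 31.7) in the adult. The log2 ratio was 3.29 over puberty and 3.20 over the adult. It was read in 72.4% (63.3 to 80.3) of cells at 2 weeks, 17.6% (11.3 to 25.7) at puberty and 15.9% at 10 weeks (6.64 to 30.1). The later stages rested on few cells, since 1 cell held 43.5% of the pubertal reads and 1 cell 53.4% of the adult reads. Its relative Sema6a had the reverse order of the first 2 stages, at 57.1, 87.5 and 33.1 CPM, with shares of 26.7%, 32.8% and 11.4%, and only the ratio of puberty over the adult passed the fold (log2 1.28). In the adult 1 cell held 66.7% of the Sema6a reads, and the level without it was 11.2 CPM. The call was lost when cells were weighted equally (log2 0.98). Sema5a, a membrane semaphorin that binds Plxnb3, was at 120.1, 175 and 47.1 CPM, with shares of 21.6%, 25.2% and 52.3%, so that between puberty and the adult the level was lower and the share higher. At puberty 1 cell held 36.6% of the Sema5a reads.

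Of the class 4 semaphorins, Sema4f was at 13.7 CPM at pre-puberty, 1.02 CPM at puberty and 0 in the adult, which makes it at least 85.1-fold higher at pre-puberty than the adult limit of 3 reads. Sema4b, the most widely read of this class at puberty, was at 17.6, 24.9 and 23.6 CPM with shares of 25.9%, 43.7% and 27.3%. Sema4a went the other way from Sema4f, at 0.909, 10.4 and 12.2 CPM, with log2 ratios of -1.38 and -1.55 for pre-puberty over puberty and over the adult. Of its adult reads 81.7% were in 1 cell, and the adult level without that cell was 2.33 CPM.

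**Figure D2:**
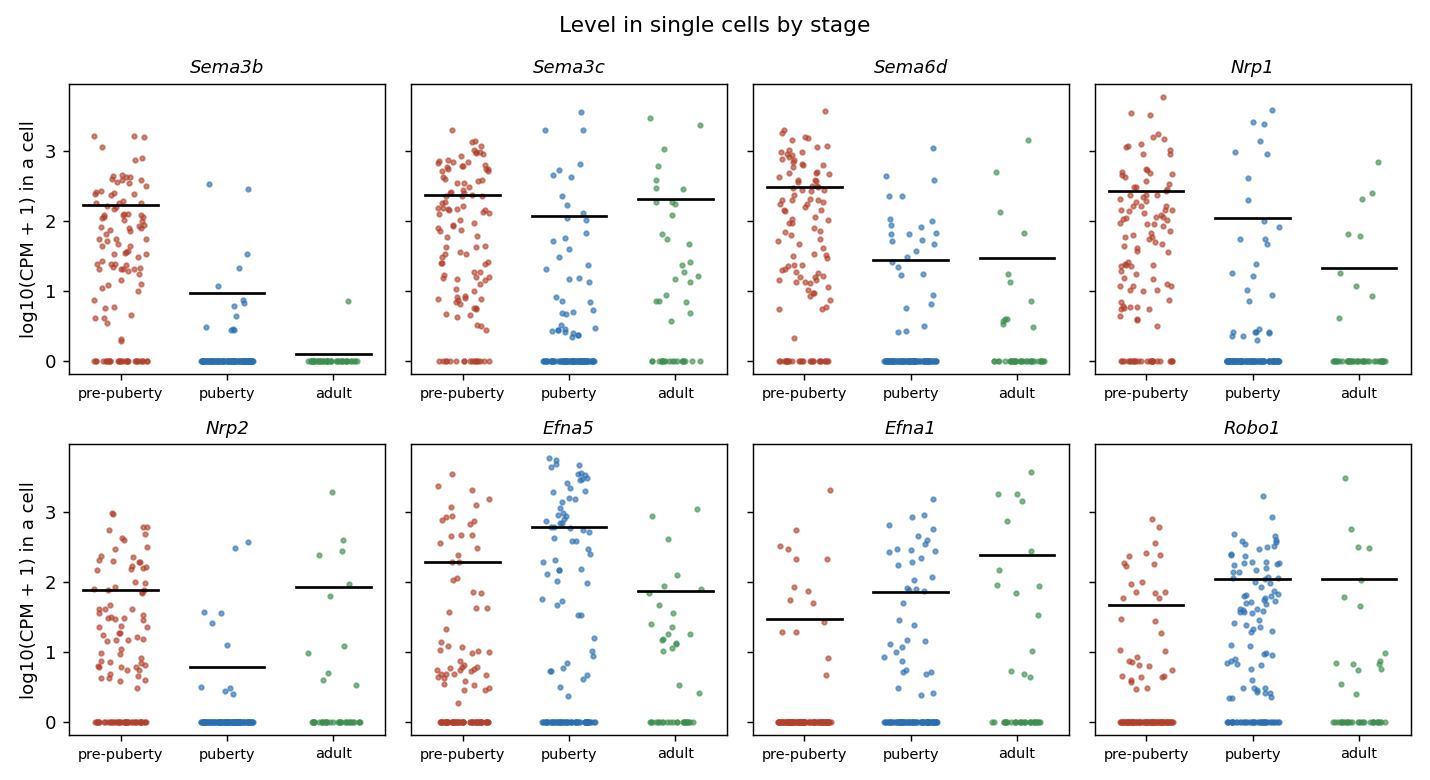
Level of 8 genes in each kept cell, as log10 of CPM plus 1 (vertical axis), by stage, with a black line at the level of the summed reads. Most pre-pubertal cells lie above 0 for Sema3b, Sema3c, Sema6d and Nrp1, while most pubertal and adult cells lie at 0 for Sema3b, Sema6d and Nrp1 and a few high cells carry the line.

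Of the 9 plexins, the signalling receptors of semaphorins, 6 had 10 CPM at pre-puberty or puberty. Among these 6, 5 were past the fold higher at pre-puberty than at puberty and 1 lower, beside 21.4% and 24.0% of all genes. Plxnb3 was at 47.6 CPM (45.5 to 49.8) at pre-puberty, 0.642 CPM (0.467 to 0.862) at puberty and 0.856 CPM (0.489 to 1.39) in the adult. Its log2 ratios were 3.22 and 3.17. Its reads were in 25.9% (18.2 to 34.8) of cells at 2 weeks, 0.84% at puberty and 4.55% at 10 weeks. Plxna4, a partner of neuropilins, was at 25.9 CPM at pre-puberty with reads in 27.6% of cells (19.7 to 36.7), against 0.131 CPM at puberty and 1 read in the adult. At puberty Plxna4 had 9 reads. Plxnb3 had 44 reads at puberty and 16 in the adult, of which 95.5% and 75% were in 1 cell of the stage.

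Plxna2 was at 31.2, 0.92 and 15 CPM, with shares of 25%, 3.36% and 2.27%. The adult level lay in 1 cell, which held 99.6% of the reads, and was 0.0543 CPM without it. Plxna1, which was at 35.3, 6.99 and 13.3 CPM, had its shares in another order, at 15.5%, 13.4% and 27.3%. Of its pre-pubertal reads 43.5% were in 1 cell, without which the level was 20.2 CPM. Plxnd1, the Sema3e receptor, was at 13, 2.26 and 0.16 CPM, and 49.8% of its pre-pubertal reads were in 1 cell. Plxnb2, a receptor of class 4 semaphorins, was the 1 plexin that was lower at pre-puberty than at puberty, at 8.77 CPM (7.88 to 9.73) against 41.1 CPM (39.6 to 42.7), with 23.3 CPM (21.2 to 25.6) in the adult. Its shares were 13.8%, 23.5% and 40.9%, and the ratio to puberty held its call under each of the 10 other settings (log2 -1.74). Plxnc1 was at 37.9 CPM in the adult, all of it in 1 cell, and at 7.15 and 0.35 CPM at the earlier stages.

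The neuropilins, co-receptors with little signalling activity of their own, both had more reads in pre-pubertal than in pubertal cells. Nrp1 was at 272 CPM (267 to 277) at pre-puberty, 112 CPM (109 to 114) at puberty and 20.3 CPM (18.3 to 22.5) in the adult. Its share of cells went from 69% (59.7 to 77.2) to 18.5% (12 to 26.6) and 18.2% (8.19 to 32.7), so the levels of the 2 later stages differed while their shares did not separate. Pre-puberty exceeded puberty with a log2 ratio of 1.25 and the adult with 3.45. Nrp2 was at 76.3 CPM (73.6 to 79), 5.04 CPM (4.52 to 5.6) and 84.3 CPM (80.2 to 88.6), with shares of 50.9%, 4.2% and 15.9%. In the adult 1 cell held 60.5% of the Nrp2 reads, and the level without it was 34.2 CPM. Either neuropilin was read in 84.5% (76.6 to 90.5) of cells at 2 weeks, 18.5% (12 to 26.6) at puberty and 29.5% at 10 weeks (16.8 to 45.2).

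Ephrins had the opposite order from the neuropilins between the first 2 stages. The 8 ephrins summed to 295 CPM (289.7 to 300.3) at pre-puberty, 790.3 CPM (784 to 797) at puberty and 337 CPM (329 to 346) in the adult. Any ephrin was read in 66.4% of pre-pubertal and 66.4% of pubertal cells, so the difference lay in the level and not in the share of cells. Efna5, a membrane-anchored ligand of EphA receptors, was at 194 CPM (189.9 to 198), 606 CPM (599.9 to 612) and 73.2 CPM (69.4 to 77.2). Its shares were 32.8% (24.3 to 42.1), 45.4% (36.2 to 54.8) and 43.2% (28.3 to 59), with overlapping intervals. Among cells with a read, the median level of Efna5 was 12.1 CPM at pre-puberty, 538 CPM at puberty and 21.9 CPM in the adult.

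Efna1, another EphA ligand, was at 28.2 CPM (26.6 to 29.9), 70.9 CPM (68.9 to 72.9) and 241 CPM (234 to 248), and the adult level was past the fold over both other stages (log2 -2.89 for pre-puberty over the adult and -1.70 for puberty over the adult). Its shares were 12.1%, 26.9% and 27.3%, and no cell held more than 28.8% of its adult reads. Efnb2, which signals to EphB receptors and Epha4, was at 55.8, 97.5 and 11.4 CPM with shares of 23.3%, 14.3% and 9.09%. Efnb1 was level between 8.99 and 12.1 CPM at the 3 stages. The other ephrins, Efna2, Efna3, Efna4 and Efnb3, stayed below 4 CPM at each stage.

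Of the 14 Eph receptors, the tyrosine kinases that bind ephrins, 6 had 10 CPM at pre-puberty or puberty. Among these 6, 3 passed the fold for pre-puberty over puberty and 2 passed it the other way, beside 21.4% and 24.0% of all genes. Ephb2 was at 24.8 CPM (23.3 to 26.3) at pre-puberty, 3.18 CPM at puberty and 0 in the adult, at least 154.3-fold higher than the adult limit, and was read in 20.7%, 1.68% and 0% of cells. Epha5 was at 13.8 CPM (12.7 to 15), 0.292 CPM and 0, at least 86-fold higher than the adult limit, with reads in 17.2% of pre-pubertal and 1.68% of pubertal cells. Ephb4, the third, was at 17.8, 4.82 and 13.4 CPM, but 1 pre-pubertal cell held 63.7% of its reads and the level without it was 6.54 CPM. Epha7 was at 35.3, 23 and 0.214 CPM, with shares of 19.8%, 5.88% and 4.55%. Its pubertal level was 6.21 CPM without the cell that held 73.4% of the reads.

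The 2 lower receptors were Epha2 and Epha4. Epha2 was at 10.2 CPM (9.24 to 11.2), 32.5 CPM (31.2 to 33.9) and 7.28 CPM (6.1 to 8.61), so puberty was past the fold over both other stages, and its shares were 12.1%, 21.8% and 15.9%. Epha4, which binds ephrins of both classes, was at 12.1, 36.3 and 17.5 CPM with shares of 4.31%, 25.2% and 13.6%. The pre-pubertal Epha4 reads were to 89.1% in 1 cell, and the level without it was 1.33 CPM. Epha1 was at 1.06, 6.58 and 10.8 CPM, and its adult reads were to 93.5% in 1 cell. Ephb1 stayed below 10 CPM at every stage, at 0.516, 2.19 and 9.84 CPM, and 1 adult cell held 97.3% of its reads there.

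Slits were low at every stage and Robo1 was not. The 3 slits together were at 7.81 CPM (6.98 to 8.72) at pre-puberty, 6.88 CPM (6.27 to 7.53) at puberty and 0.588 CPM (0.294 to 1.05) in the adult. Slit3 was at 1.47 and 3.12 CPM at the first 2 stages and had no read in the adult, which by the same limit allows a share of up to 6.82% of cells. Robo1, the Slit receptor, was at 45.7 CPM (43.6 to 47.8), 108 CPM (105 to 110.2) and 111 CPM (106 to 115), with log2 ratios of -1.15 and -1.19 for pre-puberty over puberty and over the adult. It was read in 22.4% (15.2 to 31.1), 54.6% (45.2 to 63.8) and 25% (13.2 to 40.3) of cells, so the pubertal share stood above both others. Of the adult Robo1 reads 68.6% were in 1 fibroblast-like cell, and the adult level was 36.3 CPM without the cells whose markers went against their stage. The call against the adult was lost there, with a log2 ratio of 0.30 in the other direction, while the call against puberty held under every other setting. Robo2, Robo3 and Robo4 did not reach 10 CPM.

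Netrins and their receptors differed in how they were spread over cells. Ntn1, the ligand of Dcc and the Unc5 receptors, was at 38 CPM (36.1 to 39.9) at pre-puberty, 6.37 CPM (5.78 to 6.99) at puberty and 6.95 CPM (5.81 to 8.26) in the adult. Its reads were in 39.7% (30.7 to 49.2), 10.9% (5.95 to 18) and 11.4% (3.79 to 24.6) of cells, and the log2 ratios of pre-puberty were 1.92 and 1.85. Dcc stayed below 1 CPM and was read in 1 of 119 thinned pubertal cells and in no other thinned cell. Unc5a, Unc5b and Unc5c reached 10 CPM, each through few cells. Unc5a was at 14.1 CPM at puberty, of which 1 cell held 99.9%, and at 0 at the other stages. Unc5c was at 18.2 CPM at puberty with 76.7% in 1 cell. Unc5b was at 14, 16.6 and 93.1 CPM, and without the top cell of each stage at 8.08, 1.34 and 0.165 CPM.

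**Figure D3:**
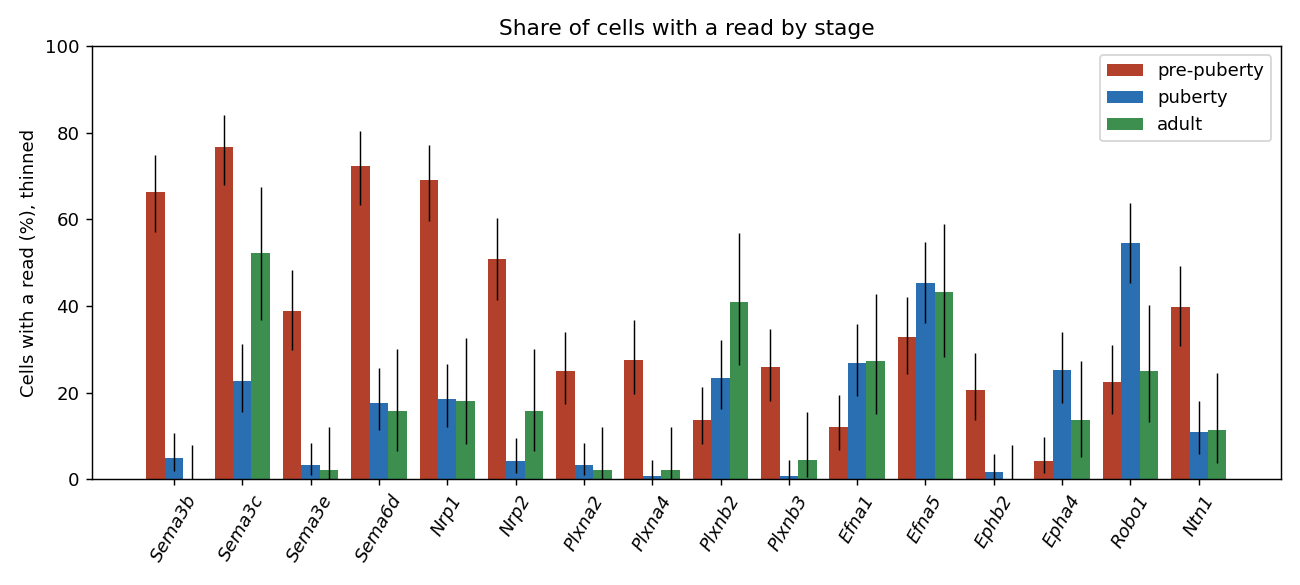
Share of thinned cells with at least 1 read of 16 genes (vertical axis, percent), by stage, with exact binomial 95% intervals. The pre-pubertal bar is the tallest for Sema3b, Sema6d, Nrp1, Nrp2 and Ntn1, and the pubertal bar for Robo1 at 54.6%.

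Between puberty and the adult, both of which held mainly epithelial cells by their markers, 9 genes were higher at puberty (33.3% of the 27 with 10 CPM, background 28.4%) and 6 were lower (22.2%, background 20.6%), both near the background. The median log2 ratio of these genes was -0.03, against 0.10 over all genes. The higher calls that held under each of the 9 other settings were Efna5 (log2 2.97), Efnb2 (2.64), Nrp1 (2.20), Sema5a (1.79) and Epha2 (1.61). The lower calls that did were Nrp2 (-3.15) and Efna1 (-1.70). The other 4 lower genes, Plxnc1, Unc5b, Sema3d and Plxna2, each lost the call when the top cell of each gene was left out. By the classes described next, the pubertal pool held 11 basal-like, 60 luminal-like and 44 unnamed cells, and the adult pool 18, 19 and 4. Age and the mix of cell classes therefore cannot be told apart in these calls.

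Cells were then divided by 8 clusters that were built without the 69 genes. The 114 pre-pubertal cells of 2 clusters were Schwann-like. A cluster of 11 pubertal and 18 adult cells was basal-like, with 10 of 15 basal and 5 of 10 luminal markers in its median cell, and Myh11 and Cxcl14 among its leading genes. A further 3 clusters with 60 pubertal and 19 adult cells were luminal-like. A cluster of 44 pubertal, 4 adult and 1 pre-pubertal cells stayed unnamed, in which the median cell had 10 of the 15 basal markers and also 7 of the 10 luminal ones. The comparisons of basal-like with luminal-like cells below leave this cluster out, although its median count of basal markers equalled that of the basal-like cluster. When cells were classed by marker counts instead, 39 pubertal cells were basal. The last cluster, with 3 pubertal, 3 adult and 1 pre-pubertal cells, was fibroblast-like. The pubertal basal-like cells were shallower than the luminal-like cells, with median reads of 241411 against 582683, and the median log2 ratio of all tested genes between them was -1.60, or -1.32 with TMM factors. In the adult the medians were 317027 and 334426 reads and the median ratio was -0.21.

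More of the genes were past the fold in basal-like than in luminal-like cells at both ages, but at puberty this turned without single cells. At puberty 15 genes were past the fold in basal-like cells (65.2% of 23 tested, background 21.1%) and 5 in luminal-like cells (21.7%, background 57.7%). In the adult 15 were higher in basal-like cells (60% of 25, background 34.4%) and 6 in luminal-like cells (24%, background 39.1%). Many of these calls rested on 1 cell: without the top cell of each gene 5 genes were higher and 7 lower in basal-like cells at puberty, and 6 higher and 2 lower in the adult. The shares of all genes past the fold without the top cell are not given here, so these 4 counts stand without a background. The median log2 ratio of the tested genes at puberty was then -2.15, near the -2.27 over all genes, in place of 1.79 against -1.60. In the adult it was 2.29 against -0.47.

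Sema5a was higher in basal-like cells at both ages under every setting, but its pubertal ratio depended on the setting. Over the 7 other settings the log2 ratio ran from 1.48 to 6.50 at puberty and from 3.10 to 4.11 in the adult. Its level was 99.1 CPM (89.1 to 109.9) against 0.733 CPM (0.479 to 1.07) at puberty and 115 CPM (108 to 124) against 5.76 CPM (4.32 to 7.54) in the adult, log2 ratios of 4.18 and 3.48. In the unnamed pubertal cluster it was at 438 CPM, in 54.5% of cells. Sema6a was at 244 CPM in pubertal basal-like cells against 13.2 CPM in luminal-like cells (log2 3.78), with reads in 9 of 11 and 5 of 60 cells. In the adult it was at 63 CPM against 0, but in 2 of 18 basal-like cells, of which 1 held 96% of the reads. Sema3c was at 274 CPM (262 to 287) in adult basal-like cells, in 12 of 18, against 13.4 CPM (11.1 to 16) in luminal-like cells, in 6 of 19 (log2 3.92).

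The neuropilins had 1 read each in adult luminal-like cells. Nrp2 had 1501 reads in adult basal-like cells, 219.9 CPM (209 to 231), and 1 read in luminal-like cells, 0.109 CPM. Its reads were in 6 of 18 basal-like cells, 1 of which held 63.5%. Nrp1 was at 48.1 CPM in 5 of 18 adult basal-like cells and at 1 read in luminal-like cells. At puberty Nrp1 was at 788 CPM (759 to 817) in 6 of 11 basal-like cells and at 59.1 CPM (56.6 to 61.7) in 5 of 60 luminal-like cells, where 1 cell held 97.4%. When pubertal cells were classed by marker counts instead, into 39 basal and 77 luminal cells, the Nrp1 ratio was -1.52 in place of 3.63. Unc5b at 255 CPM and Plxnc1 at 104 CPM also stood high in adult basal-like cells, with 99.9% and 100% of the reads in 1 of the 18 cells.

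Among the ephrins, Efna5 was at 168 CPM (159 to 178) in adult basal-like cells, in 10 of 18, against 3.7 CPM (2.56 to 5.17) in luminal-like cells, in 6 of 19 (log2 4.32). At puberty it did not separate the classes, at 373 CPM, 99.8% of it in 1 basal-like cell, against 395 CPM, and it was highest in the unnamed cluster, at 876 CPM in 72.7% of cells. Efnb2 was at 471 CPM against 32.3 CPM at puberty (log2 3.68), but 1 basal-like cell held 96.8% of the reads. Efna1 went the other way at puberty, with 0 reads in basal-like cells and 76.3 CPM (73.4 to 79.2) in luminal-like cells, at least 92.4-fold higher. With pubertal cells classed by marker counts this call was lost and the log2 ratio was 0.07 in the other direction. In the adult it was at 147.9 CPM against 302 CPM (log2 -1.01), and the call was lost under 3 of the 7 other settings.

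Genes called higher in luminal-like cells were fewer with all cells counted, but not at puberty without the top cell of each gene. Epha2 was at 51.9 CPM (49.5 to 54.3) in pubertal luminal-like cells, in 16 of 60, against 4.4 CPM (2.52 to 7.15) in basal-like cells, in 1 of 11 (log2 -2.60), a call that held under each of the 7 other settings. Sema4b was at 33.5 against 6.05 CPM at puberty and at 35.4 against 7.03 CPM in the adult, log2 ratios of -1.80 and -1.75. Neither Sema4b call held under each of the 7 other settings. Plxnb2 did not pass the fold in either age group. Robo1 was at 133 CPM in 48.3% of pubertal luminal-like cells and at 85 CPM in basal-like cells, where 1 of 11 cells held 99% of the reads, and did not pass the fold.

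**Figure D4:**
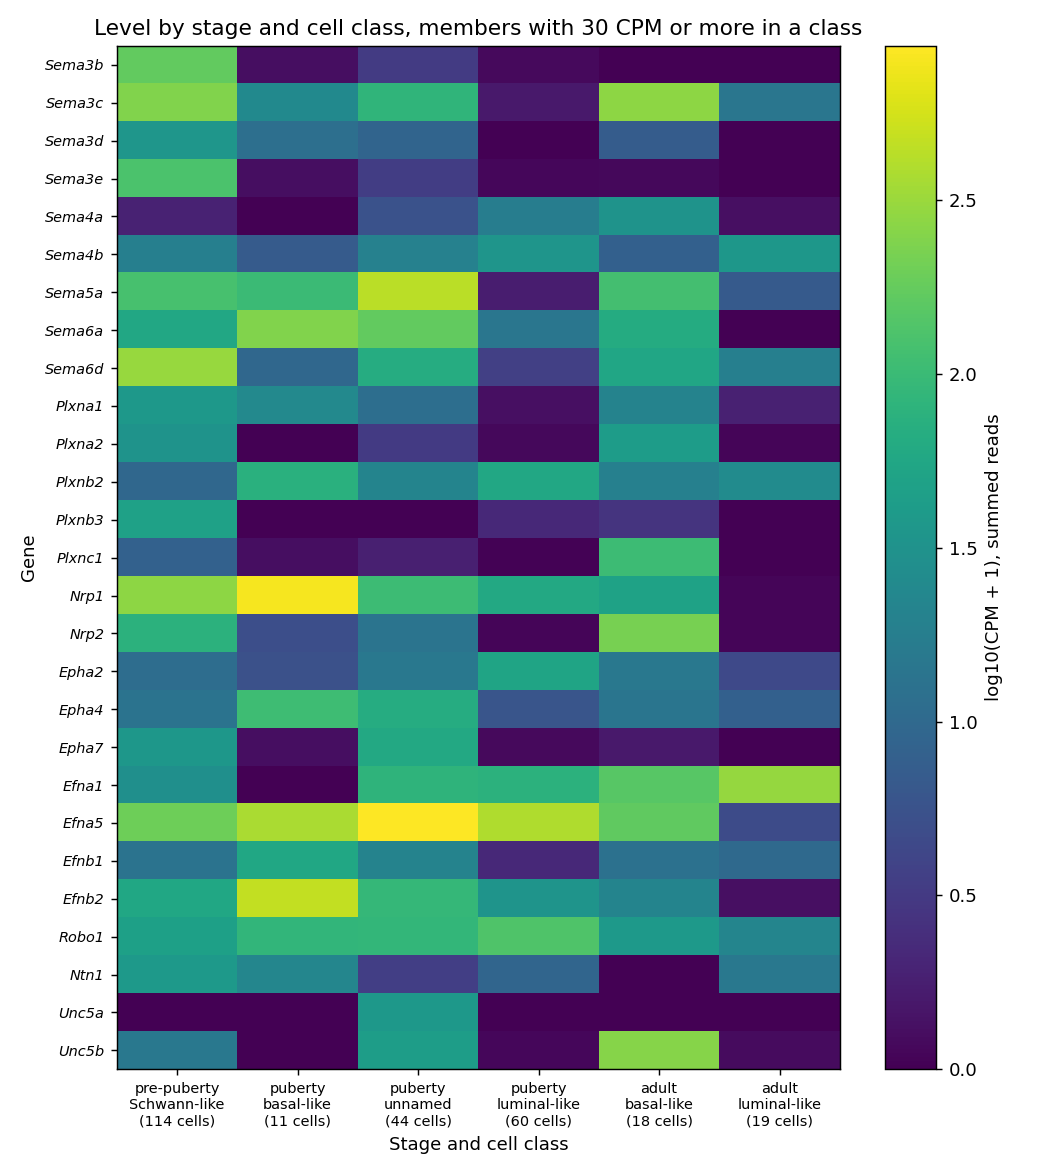
Level of the genes with 30 CPM or more in a class, as log10 of CPM plus 1 of summed reads (colour), by stage and cell class (columns, with the number of cells). The adult luminal-like column is dark for Nrp1, Nrp2 and Sema6a and bright for Efna1 at 302 CPM, and the adult basal-like column is bright for Sema3c and Nrp2. The Unc5b and Plxnc1 fields of that column came almost wholly from 1 cell each.

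Within the pre-pubertal cells, the 2 Schwann-like clusters, of 65 and 49 cells, differed in some of these genes. Sema6d was at 339 and 270.5 CPM, Sema3c at 247 and 228 CPM, and Sema3b at 127 and 234 CPM. Nrp1 was at 410.1 against 79.5 CPM, although its shares were 73.8% and 61.2%. Sema3e was at 185 against 46.9 CPM and Plxnb3 at 10.4 against 101 CPM, with Plxnb3 shares of 27.7% and 24.5%. The 12 kept cells numbered up to 37 and the 104 numbered from 38 on, a split the labels do not explain, had Sema6d at 259 and 325 CPM, Sema3b at 196 and 161 CPM and Nrp1 at 172 and 306 CPM. The earlier cells had 0.381 CPM of Epha7 and 1.05 CPM of Ephb2, against 47.4 and 33 CPM in the later cells.

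Of the 5 pairings of receptor and partner looked at, the neuropilins with A-type plexins were the most frequent in one cell at pre-puberty, and EphA receptors with their ligands at puberty and in the adult. Reads of Nrp1 or Nrp2 together with any of Plxna1 to Plxna4 occurred in 63 of the 116 cells from 2-week glands (54.3%, 44.8 to 63.6), in 8 of the 119 from puberty (6.72%, 2.95 to 12.8) and in 6 of the 44 from adults (13.6%, 5.17 to 27.4). An EphA receptor and an EphA ligand were read together in 24.1%, 30.3% and 22.7% of cells, with overlapping intervals. An EphB receptor and an EphB ligand were read together in 16.4% (10.2 to 24.4), 3.36% (0.923 to 8.38) and 9.09% (2.53 to 21.7). Robo1 or Robo2 with Slit2 or Slit3 was found in 1, 4 and 0 cells, and an Unc5 receptor or Dcc with Ntn1 or Ntn4 in 4, 2 and 1 cells. These counts follow the shares of the single genes and were not compared with any expectation. Neo1, on the pathway list below, was outside the rule and not counted among the netrin receptors. It was read in 26.7%, 20.2% and 13.6% of cells in the order of the stages.

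**Figure D5:**
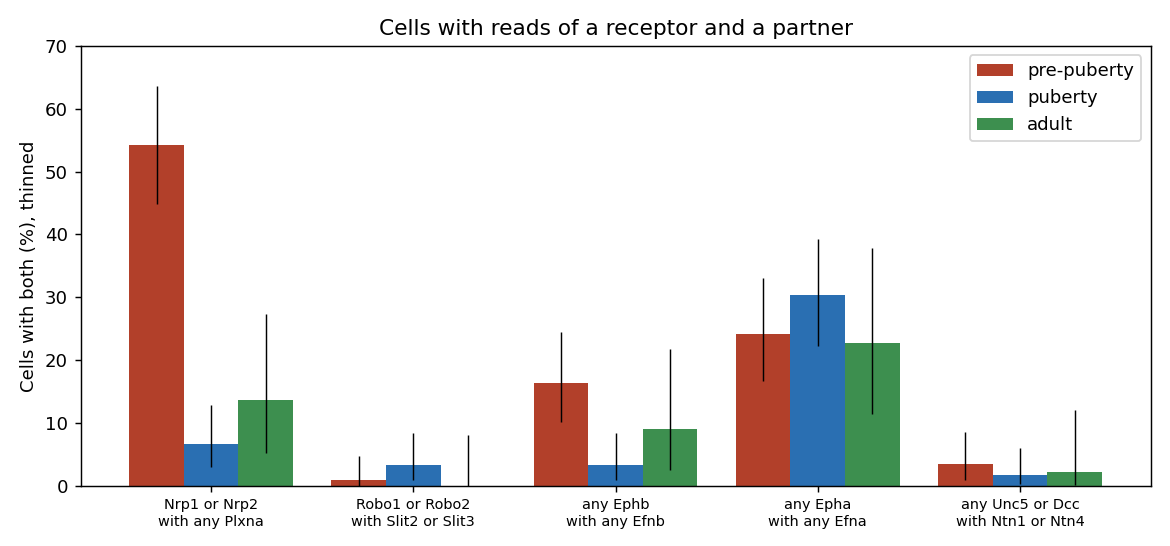
Share of thinned cells (vertical axis, percent) with reads of both members of 5 receptor and partner combinations, by stage, with exact binomial 95% intervals. The neuropilin and plexin A pair stands at 54.3% of pre-pubertal cells, and the Robo and Slit pair lies at or below 3.36% at every stage.

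Other genes of these pathways, a list of 55 cofactors, adhesion molecules and cytoplasmic effectors, were compared by the same measures. Between pre-puberty and puberty 17 of the 38 with 10 CPM were higher (44.7%) and 9 lower (23.7%), beside the backgrounds of 21.4% and 24.0%. The largest ratios were those of Chl1 (679 against 3.18 CPM, log2 6.39) and L1cam (151.1 against 0.496 CPM, log2 4.83), adhesion molecules of the L1 family, Srgap1 (92 against 6 CPM, log2 3.14), an effector of Robo receptors, Dpysl2 (3811 against 536 CPM, log2 2.82), an effector of semaphorin signals, and Ntng1 (28.5 against 0.555 CPM, log2 2.59), a membrane-anchored netrin relative. L1cam is also known as a marker of Schwann cells that do not form myelin. Those lowest at pre-puberty were Limk2 (1.82 against 47.2 CPM, log2 -2.94), Rhod (1.15 against 36.9 CPM, log2 -2.77), Pak1 (6.58 against 58.8 CPM, log2 -2.46), Nck2 (206 against 1052 CPM, log2 -2.32) and Mical3 (0.688 against 17.4 CPM, log2 -1.98), which act on the cytoskeleton. Of the Mical3 reads at puberty 85.8% were in 1 cell.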

How the data were processed

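Counts were used as deposited: whole numbers of read pairs per gene for each of 346 cells, with no molecular identifiers. Per the labels and the study's methods, the authors sorted cells with antibodies that included blood and endothelial markers, captured them on Fluidigm C1 chips and inspected the wells, made Nextera XT libraries, mapped read pairs to mm10 with Subread (1.4.6 in the submitters' processing notes) and counted Entrez genes with featureCounts and its RefSeq annotation. The handling of strand and of reads shared by similar genes is not given in the sources used here.

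Of 27179 genes, 25275 matched a symbol, and 25141 remained once 15 mitochondrial genes and 119 for ribosomal proteins were taken out. A cell near the coverage limit in the adult depends on that removal. No doublet caller was run. CPM of summed reads with exact Poisson intervals, shares after thinning with Clopper-Pearson intervals, and RPKM from the gene lengths in the files were computed in Python 3.11.15 with NumPy 2.4.6 and SciPy 1.17.1. For classes, Ward clustering (8 clusters) used 20 principal components from 1000 variable genes. TMM factors came from edgeR 4.0.16. A limit for no reads is 3 reads. Ratios were computed on simulated pools first. The genes given with values were those with 30 CPM or more at a stage, the 5 highest and 5 lowest ratios per pair of stages, the 3 highest and 3 lowest between classes, and 6 genes of the study's lists; further genes were named after their values were seen. The 69 genes, the marker and pathway lists and the classes were chosen with earlier results of these data known. The pooled table of all cells of the series was not used.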

Additional observations from a re-analysis of the deposited data

Results flagged for a closer look

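Cells below the coverage filter were left out of every comparison, and 28 pre-pubertal cells with 532403 reads in all were among them. In those cells Sema6d was at 207 CPM (169.8 to 249), Nrp1 at 272 CPM (229.8 to 320.5) and Sema3b at 173 CPM (139 to 212), each above the limit that 0 reads allow. In the 17 pubertal cells below the filter Sema6d was at 0 CPM, Nrp1 at 12 CPM and Sema3b at 4.01 CPM, and in the 22 adult cells at 11.5, 2.29 and 0 CPM.

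For 3 genes the basal-like over luminal-like ratio passed the fold in opposite directions at puberty and in the adult. The share of all genes that did so is not given here. Of all tested genes 21.1% were higher and 57.7% lower in basal-like cells at puberty, and 34.4% and 39.1% in the adult. The count of 3 therefore stands without a background. The log2 ratios were 1.00 and -1.92 for Ntn1, -2.12 and 2.79 for Sema4a and -2.60 and 1.17 for Epha2. With 1 sample per age the difference was not tested. With classes by marker counts the pubertal ratio of Ntn1 was -0.45, the same direction as in the adult, and that of Sema4a was -0.92, short of the fold. The adult call of Epha2 held in 4 of 7 other settings and fell to 0.73 with equal weight for each cell. Without the top cell of each gene the adult ratios were -0.79 for Ntn1, 0.98 for Sema4a and 0.99 for Epha2, all short of the fold. In the adult 1 basal-like cell held 86.2% of the Sema4a reads and 50% of the Epha2 reads, and 1 luminal-like cell held 75.8% of the Ntn1 reads.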

How the results depend on the processing

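No paired analysis was possible because the result comes from no test. The 10 counts of genes past the fold stayed within 1.5 times of their value with 1 CPM added, no filter on level, a stricter coverage filter, equal weight for each cell and TMM factors. The 6 counts between stages did so with no coverage filter, all genes in the total and, chosen after seeing the data, without cells whose markers went against their stage, and the 4 with pre-puberty did so with pre-pubertal cells from number 38 on. Without the top cell of each gene, the lower count fell from 7 to 1 for pre-puberty over adult and from 6 to 2 for puberty over adult, the higher count of basal-like over luminal-like cells from 15 to 5 at puberty and from 15 to 6 in the adult, and the lower count in the adult from 6 to 2. The last was 3 with classes by marker counts. Without the top cell these log2 ratios changed sign: over adult, pre-puberty Epha1 (0.01), Plxnc1 (1.00) and Unc5b (1.34), and puberty Plxna2 (0.12), Plxnc1 (0.04), Sema3d (0.25) and Unc5b (0.30). In adult classes the ratios of Plxna2 and Plxnc1 fell to 0.00 without it. With classes by marker counts the sign changed for Efna1 (0.07), Epha1 (-1.38), Nrp1 (-1.52), Ntn1 (-0.45) and Sema3c (-1.21) at puberty and for Efna1 (0.54) in the adult. Sema6d in adult classes turned to -0.88 with the stricter coverage filter, and Robo1 in pre-puberty over adult to 0.30 without cells whose markers went against their stage. The cause was not tested. Of the ratios of single genes under all alternatives, 931 kept their direction and their side of the fold, 52 dropped below the fold and 23 passed it. Depth sets the limit of detection, which at 3 reads was 0.16 CPM in the adult.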
